A study of Mus musculus with 6 samples.

Results

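The 9 genes Ifnar1, Ifnar2, Ifngr1, Ifngr2, Jak1, Jak2, Tyk2, Stat2 and Stat3 encode the chains of the type I and type II interferon (IFN) receptors, the kinases bound to them and STAT proteins that they phosphorylate. They were chosen by name from the 53618 named genes of the table, and all 9 were among the 12298 genes expressed enough to be tested. Bulk RNA-seq was carried out on 6 libraries of GFP+Lin-c-Kit+ splenocytes, 1 library per mouse, sorted 3 days after the first injection. The mice carried an acute myeloid leukemia driven by AE9a, a truncated AML1-ETO fusion protein, and GFP marked the leukemia cells. Both groups carried the same Usp18+/f UBCER-Cre AE9a cells, in which a ubiquitous promoter drives a Cre recombinase that tamoxifen activates. The oil group (3 mice) is labelled Usp18+/f and the tamoxifen group (3 mice) is labelled Usp18+/Δ, so that the only labelled difference is tamoxifen and the deletion of a floxed Usp18 allele it is meant to cause. Per the study's methods, the leukemia was passed through transplantation and the mice of the study were aged 8 to 12 weeks.

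Type I IFNs bind a receptor made of IFNAR1, which holds the kinase TYK2, and IFNAR2, which holds JAK1. IFNγ, the type II IFN, binds IFNGR1, which holds JAK1, and IFNGR2, which holds JAK2. The kinases phosphorylate STAT proteins, and STAT2 joins IRF9 and a further STAT in the ISGF3 complex, which binds the IFN-stimulated response element (ISRE), while STAT dimers bind the gamma-activated site (GAS). USP18 binds IFNAR2 and hinders JAK1 there, and STAT2 brings USP18 to the receptor, so the comparison asks whether the transcripts of this receptor and kinase set move when a Usp18 allele is targeted.

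The transcripts of these 9 genes did not differ detectably between the groups. With limma, 0 of the 9 passed an adjusted p of 0.05, where 0% of the genes tested passed, and 0 of the 9 had an unadjusted p under 0.05, where 4.47% of the genes tested did. DESeq2 on the recovered reads also called 0 of the 9, and 0.464% of the genes it tested, and edgeR 0 of the 9 and 0%. Ifngr1 was the only gene of the 9 whose groups did not overlap, with every library labelled tamoxifen below every library labelled oil, which held for 9.69% of all genes tested in that direction and 17.6% in either direction. In bulk RNA, fewer cells of a type and less RNA per cell cannot be told apart. Transcript levels say nothing of the phosphorylation or surface level of these proteins, which were not measured here.

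The library labelled tamoxifen 1 stood apart from the other 5, so group differences of the 9 genes and of the lists around them are given with and without it. Its median correlation with the other libraries was 0.913, against 0.981 to 0.990 for the others, and mitochondrial genes took 0.00923% of its reads against 1.011% to 1.56%. GC-poor transcripts were low and GC-rich ones high in it: protein-coding genes under 45% GC deviated by a median of -1.09 (log2), those over 55% by 0.86. The depth was 19172471 to 23785143 reads per library. The targeted gene itself was not lower under the tamoxifen label. Normalized counts of Usp18 were 477, 329 and 284 under the tamoxifen label and 217, 214 and 176 under the oil label. These are counts over the whole gene, so deletion of an allele was not tested. Directions are therefore given between libraries labelled tamoxifen and oil. Markers of leukemic progenitors, Kit included, summed to 22169 to 27130 normalized counts in the oil libraries and 21460 to 26930 in the tamoxifen libraries, with none of the 10 at 0.

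Promoter sequences from RefSeq (GRCm38.p6), each 250 bases before to 50 bases after the annotated start, were found for 9 of the 9 genes and searched for the cores of the ISRE (GAAA, any 2 bases, GAAA) and of the GAS (TTC, any 3 bases, GAA) on both strands. The GAS core reads the same on both strands, so a match was counted once, and no match of a motif overlapped one of the other motif in these genes. The ISRE core was present in 3.44% and the GAS core in 8.30% of 32851 mouse promoters of the same length. Of the 9, Stat2 held an ISRE core, and Ifnar2 and Ifnar1 each held a GAS core. No match in the windows of the other 6 says only that these letters are not there. The stretches around the matches are shown because these elements are the read-out of the pathway that the 9 genes form, with the match in capitals. They run 5′ to 3′ on the plus strand, which is the strand of these genes. The Stat2 stretch lies at chr10:128270248-128270325, with the match from base -222 to -213 relative to the annotated start, the Ifnar2 stretch at chr16:91372533-91372617, with the match from -214 to -206, and the Ifnar1 stretch at chr16:91485170-91485218, with the match from -5 to 4.
Stat2: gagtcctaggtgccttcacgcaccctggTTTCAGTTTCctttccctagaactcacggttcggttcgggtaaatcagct
Ifnar2: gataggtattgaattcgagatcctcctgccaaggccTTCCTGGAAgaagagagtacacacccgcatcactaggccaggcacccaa
Ifnar1: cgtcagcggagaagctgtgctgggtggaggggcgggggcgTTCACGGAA

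For comparison, the ISRE cores of Ifit1 and Rsad2, ISRE targets described below, are given with 10 bases on each side. Ifit1 held a pair of them, at chr19:34640775-34640804 and chr19:34640794-34640823 on the plus strand, and Rsad2 held 1 at chr12:26456553-26456582 on the minus strand, printed in the direction of the gene. The capitals of the Stat2 match and of the proximal Ifit1 match are the same 10 letters.
Ifit1, distal: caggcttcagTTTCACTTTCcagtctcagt
Ifit1, proximal: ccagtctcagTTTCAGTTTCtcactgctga
Rsad2: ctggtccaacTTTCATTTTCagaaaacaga

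The chains of the type I IFN receptor lie on chromosome 16 (GRCm38, GENCODE vM21), Ifnar2 at 91372783 to 91405589 and Ifnar1 at 91485238 to 91507441, both on the plus strand. Ifnar1 (ENSMUSG00000022967.13) encodes the chain that holds TYK2. Normalized counts, given here and below in the order of replicates 1, 2 and 3, came to 1574, 1494 and 1386 for oil, and 1334, 1408 and 1411 for tamoxifen. The groups overlapped, and the tamoxifen libraries lay at the lower end of the oil range or just below it. The group means, 1485 ± 94.1 (SD, n = 3) for oil and 1385 ± 43.7 (SD, n = 3) for tamoxifen, differed by a log2 fold change of -0.10 ± 0.13 (SE), with a 95% interval of -0.42 to 0.22 and a limma adjusted p of 0.721. It was -0.07 (95% interval -0.26 to 0.12) with tamoxifen 1 left out. Ifnar1 was among the genes that tamoxifen 1 moved least, at 0.918 times the mean of the other 5 libraries, and 91.0% of the genes tested deviated more in this library.

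Ifnar2 (ENSMUSG00000022971.18) encodes the chain that binds IFN most tightly and that USP18 attaches to. It had 1209.9, 1233 and 1172 normalized counts in the oil libraries, and 2574, 1113 and 1194 in the tamoxifen libraries. Tamoxifen 1 alone was high, at 2.17 times the mean of the other 5, while tamoxifen 2 was the lowest of all libraries. The mean was 1205 ± 30.9 (SD, n = 3) in the oil group, the tightest of the 9 with a coefficient of variation of 2.56%, and 1627 ± 821 (SD, n = 3) in the tamoxifen group. The log2 fold change was 0.32 ± 0.33 (SE; 95% interval -0.46 to 1.11; limma adjusted p = 0.668) over all libraries and -0.06 (95% interval -0.25 to 0.12) without tamoxifen 1, so the sign rested on this library. An annotated gene without reads shares 315 of the 3329 exon bases of Ifnar2 on the same strand.

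Ifngr1 (ENSMUSG00000020009.13, chromosome 10, 19591949 to 19610229, plus strand) encodes the ligand-binding chain of the IFNγ receptor. It had 596, 566 and 598 normalized counts in the oil libraries, and 187, 554 and 456.5 in the tamoxifen libraries. All 3 tamoxifen libraries lay below all 3 oil libraries, narrowly for tamoxifen 2 and by a wide margin for tamoxifen 1. The value of tamoxifen 1 rested on 146 reads, the fewest of any of the 9 genes in any library, and its exact 95% Poisson interval of 158 to 219 normalized counts, which covers counting error only, lay below every other library. Mean values were 587 ± 17.8 (SD, n = 3) for oil and 399 ± 190.2 (SD, n = 3) for tamoxifen. The log2 fold change was -0.70 ± 0.40 (SE; 95% interval -1.66 to 0.27; limma adjusted p = 0.666), the largest of the 9 in size. Without tamoxifen 1 it was -0.22 (95% interval -0.48 to 0.03; limma adjusted p = 0.471), and the groups still did not overlap, as for 16.8% of all genes tested in that direction.

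Ifngr2 (ENSMUSG00000022965.8, chromosome 16, 91547072 to 91565623, plus strand) encodes the signaling chain that holds JAK2. It had 1080.6, 1111 and 882 normalized counts in the oil libraries, and 567, 891 and 857 in the tamoxifen libraries. Tamoxifen 1 was lowest, and tamoxifen 2 lay just above oil 3, so the groups overlapped. Mean values were 1025 ± 124 (SD, n = 3) for oil and 772 ± 178 (SD, n = 3) for tamoxifen, a log2 fold change of -0.43 ± 0.22 (SE; 95% interval -0.97 to 0.11; limma adjusted p = 0.666). Without tamoxifen 1 it was -0.22 (95% interval -0.48 to 0.03; limma adjusted p = 0.470), close to the value of Ifngr1. With library weights, which gave tamoxifen 1 the least weight, the unadjusted p was 0.0226 for Ifngr1 and 0.0237 for Ifngr2 (limma adjusted p = 0.143 and 0.147). That fit called 0 of the 9 and 6.36% of all genes tested, and 23.4% had an unadjusted p under 0.05.

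**Figure D1:**
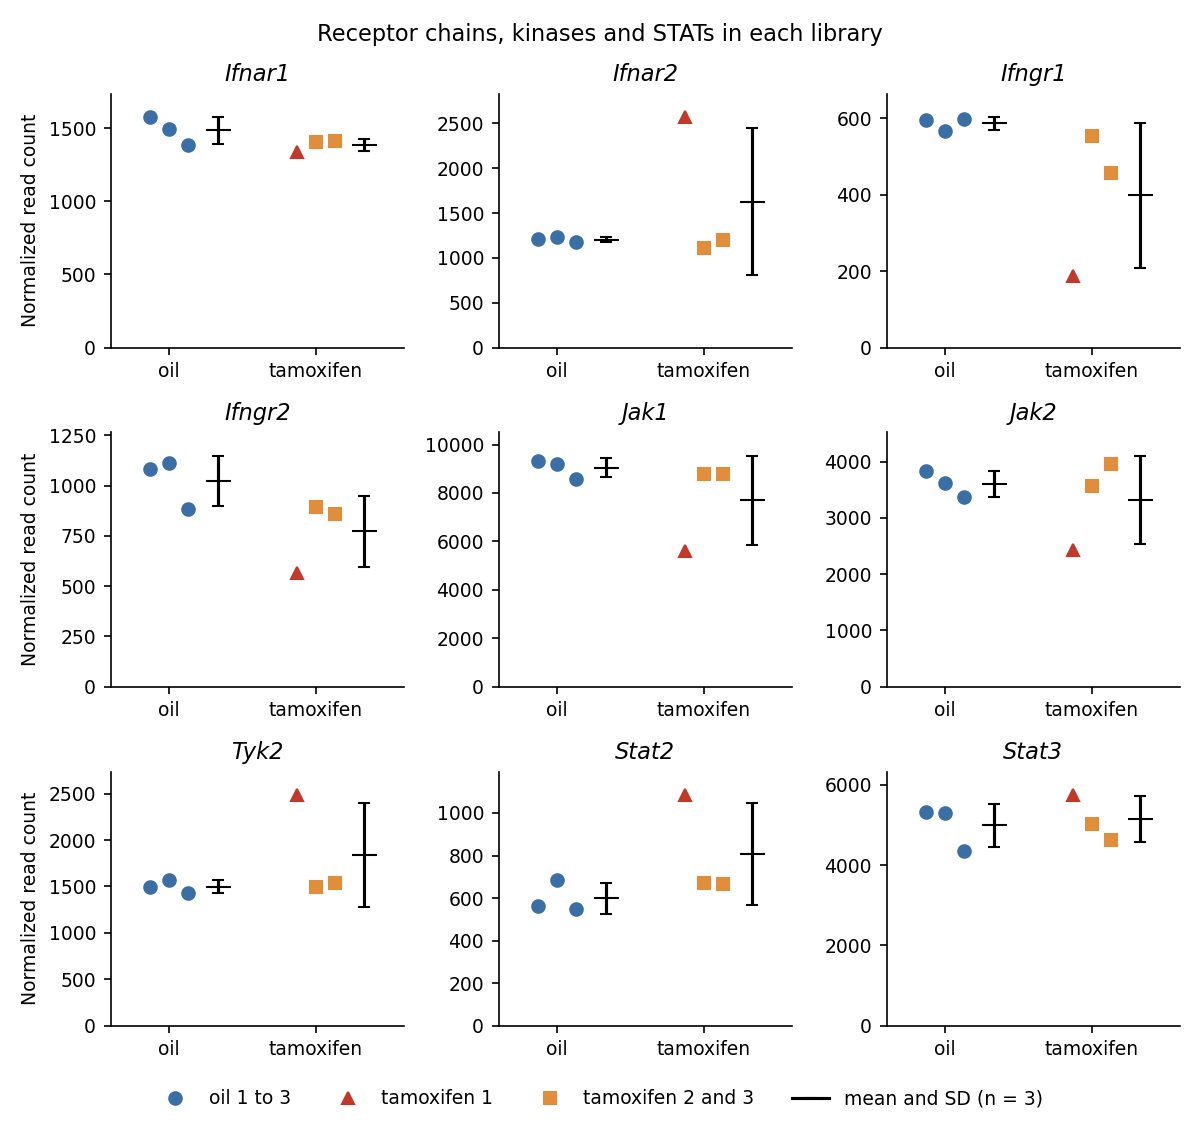
Normalized read counts (vertical axes, each from 0) of the 9 genes in the 3 libraries labelled oil and the 3 labelled tamoxifen, 1 point per library, with the group mean and SD (n = 3) as a bar beside the points. Tamoxifen 1 (triangles) was the highest library for Ifnar2, Tyk2, Stat2 and Stat3 and the lowest for the other 5, and only Ifngr1 had every tamoxifen library below every oil library.

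Ifnar2, Ifnar1 and Ifngr2 belong to a cluster of 4 receptor genes that spans 193 kb of chromosome 16, together with Il10rb, which encodes a chain shared by the receptors of IL-10 and of the type III IFNs. These neighbours did not move together in tamoxifen 1. Relative to the mean of the other 5 libraries, its value was 2.17-fold for Ifnar2, 0.705-fold for Il10rb, 0.918-fold for Ifnar1 and 0.592-fold for Ifngr2. The GC contents of these genes lie close to each other, from 49.2% to 50.4%. Without tamoxifen 1 the log2 fold changes of the 4 ran from -0.22 to -0.06.

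The log2 fold changes of the 3 kinases lay between -0.26 and 0.26 over all libraries, and between -0.04 and 0.06 without tamoxifen 1. Jak1 (ENSMUSG00000028530.14, chromosome 4, 101152367 to 101265282, minus strand) encodes the kinase that both IFN receptors and many other cytokine receptors use. It had 9312, 9207 and 8582 normalized counts in the oil libraries, and 5586, 8767 and 8766 in the tamoxifen libraries. Tamoxifen 2 and 3 lay inside the oil range and tamoxifen 1 lay below it. Means of 9034 ± 394 (SD, n = 3) for oil and 7706 ± 1836 (SD, n = 3) for tamoxifen gave a log2 fold change of -0.26 ± 0.21 (SE; 95% interval -0.76 to 0.24; limma adjusted p = 0.666). Without tamoxifen 1 it was -0.04, with a 95% interval of -0.21 to 0.13.

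Jak2 (ENSMUSG00000024789.13, chromosome 19, 29251828 to 29313080, plus strand) encodes the kinase of the IFNγ receptor and of the receptors of erythropoietin, IL-3 and GM-CSF. It had 3830.1, 3621 and 3374 normalized counts in the oil libraries, and 2436, 3562 and 3958 in the tamoxifen libraries. The lowest and the highest of the 6 values were both in the tamoxifen group. Means came to 3608 ± 228 (SD, n = 3) for oil and 3319 ± 789.6 (SD, n = 3) for tamoxifen, a log2 fold change of -0.15 ± 0.21 (SE; 95% interval -0.65 to 0.35; limma adjusted p = 0.729) that became 0.06 (95% interval -0.13 to 0.25) without tamoxifen 1.

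Tyk2 (ENSMUSG00000032175.11, chromosome 9, 21104068 to 21131243, minus strand), the kinase held by IFNAR1, has the highest GC content of the 9, at 57.0%. It had 1495, 1571 and 1431 normalized counts in the oil libraries, and 2489.65, 1497 and 1542 in the tamoxifen libraries. Tamoxifen 1 alone was outside the oil range. Means came to 1499 ± 69.98 (SD, n = 3) for oil and 1843 ± 560.4 (SD, n = 3) for tamoxifen. The log2 fold change was 0.26 ± 0.22 (SE; 95% interval -0.28 to 0.80; limma adjusted p = 0.666), and 0.02 (95% interval -0.16 to 0.20) without tamoxifen 1.

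Stat2 (ENSMUSG00000040033.16, chromosome 10, 128270559 to 128292849, plus strand), the STAT of ISGF3 that also brings USP18 to IFNAR2, had 563, 684 and 549.7 normalized counts in the oil libraries, and 1086, 669 and 667 in the tamoxifen libraries. Tamoxifen 2 and 3 lay just below the highest oil library, so the groups overlapped. The oil mean was 599 ± 74.0 (SD, n = 3), the widest oil spread of the 9 at a coefficient of variation of 12.3%, and the tamoxifen mean 807 ± 242 (SD, n = 3). The log2 fold change was 0.40 ± 0.24 (SE; 95% interval -0.18 to 0.97; limma adjusted p = 0.666). Without tamoxifen 1 it was 0.16 (95% interval -0.10 to 0.43; limma adjusted p = 0.616), the highest of the 9 in that fit.

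Stat3 (ENSMUSG00000004040.16, chromosome 11, 100885098 to 100939540, minus strand) encodes the STAT best known for signals of the IL-6 and IL-10 families, which type I IFNs also activate. It had 5320.3, 5289 and 4365 normalized counts in the oil libraries, and 5759, 5035 and 4631 in the tamoxifen libraries. The groups overlapped, with tamoxifen 1 above and oil 3 below all other libraries. Means of 4991 ± 543 (SD, n = 3) for oil and 5142 ± 572 (SD, n = 3) for tamoxifen gave a log2 fold change of 0.04 ± 0.16 (SE; 95% interval -0.33 to 0.42; limma adjusted p = 0.894). It was -0.04 (95% interval -0.27 to 0.18) without tamoxifen 1. A neighbouring gene on the opposite strand shares 72 of the 9527 exon bases of Stat3, and the strand setting of the counting is not given in the sources used here.

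**Figure D2:**
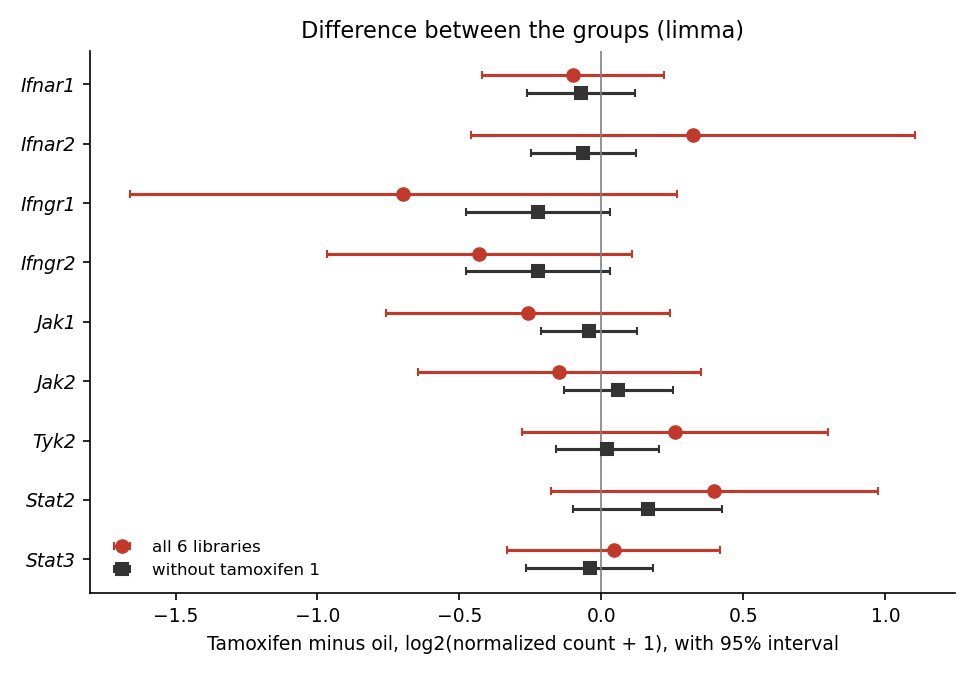
Difference between the groups for each of the 9 genes (horizontal axis, tamoxifen minus oil on the log2(normalized count + 1) scale) from limma over all 6 libraries (red circles) and without tamoxifen 1 (black squares), with 95% intervals as bars. Every interval includes 0 in both fits, and the intervals are narrower without tamoxifen 1.

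As a set, the 9 genes were spread around no difference. Over all libraries 4 had a log2 fold change above 0 and 5 below 0, with a median of -0.10 against -0.02 over all genes tested. Without tamoxifen 1 there were 3 above 0 and 6 below 0, with a median of -0.04 against -0.02, and 6 of the 9 kept their sign. The median size of the log2 fold change was 0.26 for the 9 and 0.29 for all genes tested, and 0.06 and 0.12 without tamoxifen 1. That fit called 41 of the genes tested (0.333%, of which 0.309% were higher and 0.0244% lower), and 0 of the 9. A correction for GC content also called 0 of the 9, and 0.0164% of the genes it tested. In the fit without tamoxifen 1, the upper bounds of the 95% intervals lay between 0.03 and 0.43 and the lower bounds between -0.48 and -0.10, so that in these 5 libraries a change of 2-fold in either direction lay outside the interval of each of the 9.

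Tamoxifen 1 was the highest or the lowest library for 9 of the 9 genes, which held for 82.7% of all genes tested. Its deviation from the mean of the other 5 libraries ran from -1.56 for Ifngr1 to 1.12 for Ifnar2 on the log2 scale. Across the 9 genes, which share this library and are not replicates, the deviation went with GC content with a Spearman correlation of 0.70 and a Pearson correlation of 0.62, given as a description. Jak2, Stat3, Tyk2 and Ifnar1 lay between the quartiles of protein-coding genes of like GC content (bins of 2 percentage points), and the other 5 lay outside them. Jak1 was just under the lower quartile (-0.68 against -0.67), Ifngr2 and Ifngr1 were further below, and Stat2 and Ifnar2 were above. After a loess correction of each library for GC content, the deviation of Tyk2 was 0.06, that of Stat3 -0.01 and that of Jak2 0.22, while Ifnar2 stayed at 1.103, Ifngr1 at -1.37, Ifngr2 at -0.71 and Stat2 at 0.62.

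**Figure D3:**
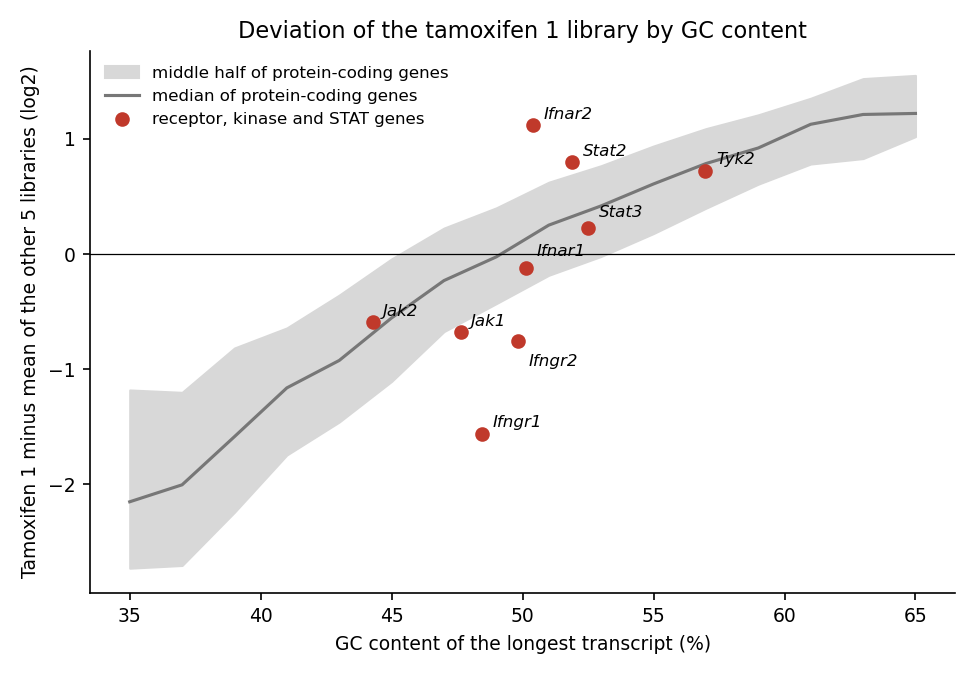
Deviation of the tamoxifen 1 library from the mean of the other 5 libraries (vertical axis, log2 scale) against the GC content of the longest transcript (horizontal axis, percent) for the 9 genes (red points), with the median (line) and the quartiles (grey band) of protein-coding genes in bins of 2 percentage points. Tyk2, Stat3, Ifnar1 and Jak2 lie in the band, Ifnar2 and Stat2 above it, and Ifngr1, Ifngr2 and, by a small margin, Jak1 below it.

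The levels of the 9 genes were compared per kb of exon length, since longer transcripts give more reads. In the oil libraries the order was Jak1 at 1250 ± 54.6 normalized counts per kb (SD, n = 3), Jak2 at 717 ± 45.4, Stat3 at 524 ± 57.0, Ifnar2 at 362 ± 9.28, Ifngr2 at 272 ± 33.04, Ifnar1 at 249.97 ± 15.8, Tyk2 at 218 ± 10.2, Ifngr1 at 206 ± 6.27 and Stat2 at 101 ± 12.5. The ranges of Ifngr2 and Ifnar1 overlapped, as did those of Tyk2 and Ifngr1, while the other neighbours in the order did not overlap. Jak1 was thus 12.4-fold above Stat2. Among 10807 protein-coding genes tested, with a median of 176 per kb, Jak1 stood at percentile 92.3 and Stat2 at 35.8, the only 1 of the 9 below the median.

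Within each receptor the chains were less far apart than the kinases in the oil mean. This was reversed in tamoxifen 1. There Ifnar2 was at 773.2 and Ifnar1 at 225 per kb, with Jak1 at 773.0 and Tyk2 at 363. Ifngr2 was at 151 and Ifngr1 at 65.5 in that library, with Jak2 at 484. Tamoxifen 2 and 3 gave the same order as the oil mean, except that Ifnar1 and Ifngr2 changed places. In tamoxifen 1, Ifnar2 came first at 773.2 per kb, with Jak1 next at 773.0, and Ifngr1 came last at 65.5. Raw levels per kb across genes also carry any bias of the library preparation between genes, which was not measured.

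**Figure D4:**
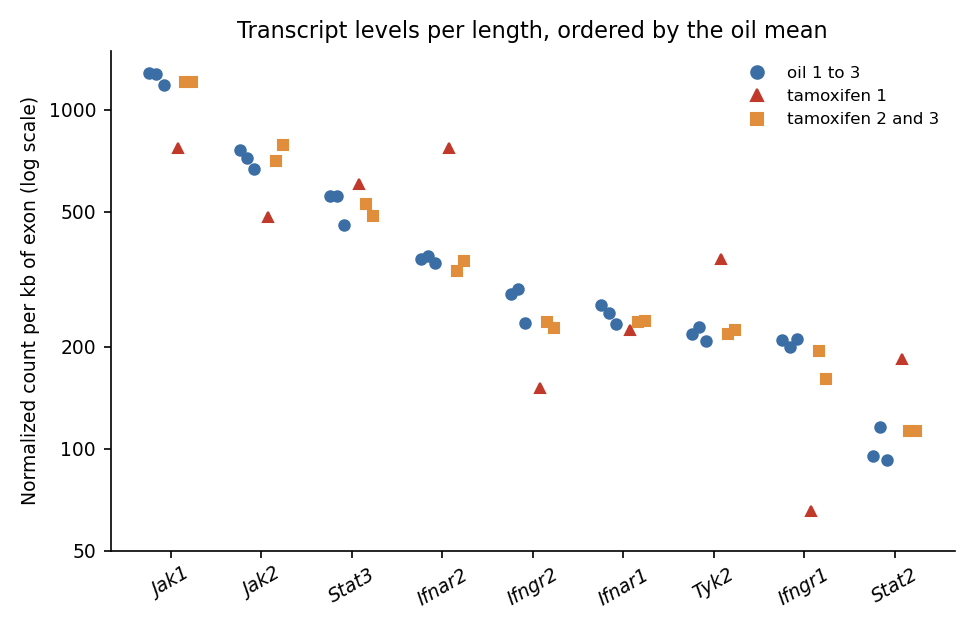
Normalized counts per kb of exon (vertical axis, log scale) of the 9 genes in each library, ordered by the mean of the oil libraries (blue circles), with tamoxifen 1 as triangles and tamoxifen 2 and 3 as squares. Jak1 led at 1250 per kb in the oil group and Stat2 was lowest at 101, and tamoxifen 1 departed most for Ifngr1 and Ifnar2.

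The balance between partners was examined as ratios within a library, which do not depend on the scaling between libraries. These are ratios of normalized counts without correction for exon length, so they compare libraries and do not say which gene of a pair had the higher level. The ratio of Ifnar1 to Ifnar2 was 1.30, 1.21 and 1.18 in the oil libraries and 0.518, 1.26 and 1.18 in the tamoxifen libraries. Apart from tamoxifen 1, the chains of the type I receptor kept a near constant ratio. The difference of the mean log2 ratio was -0.42, with an exact two-sided permutation p of 0.4, and -0.01 without tamoxifen 1. The ratio of Ifngr1 to Ifngr2 was 0.552, 0.510 and 0.678 in the oil libraries and 0.329, 0.621 and 0.533 in the tamoxifen libraries, and the groups overlapped. The difference of the mean log2 ratio was -0.27 (exact two-sided permutation p = 0.5), and -0.00014 without tamoxifen 1.

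The ratio of Tyk2 to Jak1, the pair of kinases at the type I receptor, was 0.161, 0.171 and 0.167 in the oil libraries and 0.446, 0.171 and 0.176 in the tamoxifen libraries. It was higher in all 3 tamoxifen libraries than in all 3 oil libraries, although tamoxifen 2 exceeded oil 2 only in the fourth decimal. The GC content is 57.0% for Tyk2 and 47.6% for Jak1, and the ratios were not corrected for it. The difference of the mean log2 ratio was 0.52 (exact two-sided permutation p = 0.1, adjusted over the 5 ratios 0.25), and 0.06 without tamoxifen 1. The ratio of Stat2 to Stat3 was 0.106, 0.129 and 0.126 in the oil libraries and 0.189, 0.133 and 0.144 in the tamoxifen libraries, again without overlap. Its difference was 0.35 (exact two-sided permutation p = 0.1, adjusted 0.25), and 0.21 (exact permutation p = 0.2) without tamoxifen 1. The ratio of Jak2 to Jak1, the kinases of the IFNγ receptor, was 0.411, 0.393 and 0.393 in the oil libraries and 0.436, 0.406 and 0.451 in the tamoxifen libraries, which overlapped through tamoxifen 2. Its difference was 0.11 (exact two-sided permutation p = 0.2), and 0.10 without tamoxifen 1. With 3 libraries per group the smallest p of this test is 0.1, so no ratio could pass 0.05.

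Ligand transcripts of the receptors were at the floor. Of 21 genes for type I, II and III IFNs, 0 were expressed enough to be tested, and no gene had more than 4 reads in any library. Their reads summed to 1 to 5 per library. Ifnb1, the first type I IFN that many cells make, and Ifng, the ligand of IFNGR1, had 0 reads in each of the 6 libraries, which allows up to 3 reads in each. IFN made by other cells of the spleen is not covered by sorted leukemia cells.

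Of the other cytokine receptor chains that use these kinases, 18 of 33 were tested and 0 were called, 14 with a log2 fold change above 0 and 4 below. Their median was 0.37, and 0.17 without tamoxifen 1. In 4 of the 18 every tamoxifen library lay above every oil library, where 7.86% of all genes tested did. Csf2rb2, a beta chain of the IL-3 receptor that signals through JAK2, had 5954, 4276 and 3271 normalized counts in the oil libraries and 9408, 6322 and 11574 in the tamoxifen libraries (log2 fold change 1.02 ± 0.30 (SE), limma adjusted p = 0.666). Il10ra, the ligand-binding chain of the IL-10 receptor that signals through JAK1 and STAT3, had 365, 227 and 154 against 615, 366 and 857 normalized counts, and a log2 fold change of 1.30. Both kept values near these without tamoxifen 1, at 0.97 and 1.26. For Il4ra, the IL-4 receptor chain that binds JAK1, the log2 fold change was 0.74, and 0.46 without tamoxifen 1.

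Macrophage markers were also compared. Summed over 10 genes, they were 79.1 to 208 normalized counts in the oil libraries and 235 to 333 in the tamoxifen libraries. Of these genes 7 were tested, 7 had a log2 fold change above 0, 3 lay higher without overlap between the groups (7.86% of all genes tested did), 0 were called and 0 were at 0 in all libraries. Within the tamoxifen group the sum was highest in tamoxifen 2 (333), where Csf2rb2 and Il10ra were lowest, and lowest in tamoxifen 3 (235), where both were highest. Within the oil group the sum was highest in oil 1 (208), where both genes were also highest. Their part in the values of these receptor chains, of the pathway targets below and of the 9 genes was not tested. Per the labels, the sort kept GFP+ c-Kit+ cells without lineage markers, and the lineage antibodies used on these spleens are not listed in the sources used here. Markers of T cells summed to at most 8.08, of NK cells to at most 0.929 and of B cells to at most 24.3 normalized counts in any library, with Cd3e and Ncr1 at 0 throughout. Mast cell and basophil markers, of which 0 of 8 were at 0, summed to 26706 to 27381 in the oil libraries, 8254 in tamoxifen 1 and 29649 and 30586 in tamoxifen 2 and 3. The summed levels in the oil and the tamoxifen libraries were 12.6 to 23.2 and 26.4 to 42.2 for neutrophil markers, 85.3 to 130.2 and 84.9 to 175 for dendritic cell markers, and 50874 to 70786 and 55906 to 88292 for erythroid markers.

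Among 19 negative regulators of the pathway, 16 were tested and 0 were called, 8 above 0 and 8 below, with a median log2 fold change of 0.11, and 0.08 without tamoxifen 1. In 5 of the 16 every tamoxifen library lay above every oil library, against 7.86% of all genes tested, and in 3 every one lay below, against 9.69%. Those with the smallest p, Usp18, Socs1 and Cish, are themselves induced by cytokine signals and were among the 5. Socs1, which blocks JAK1, JAK2 and TYK2, had 1002, 921 and 1082 normalized counts in the oil libraries and 3328, 1439.67 and 1619 in the tamoxifen libraries. Its log2 fold change was 0.99 ± 0.32 (SE; limma adjusted p = 0.666), and 0.61 without tamoxifen 1 (limma adjusted p = 0.0426), where 0.309% of all genes tested were called higher. The log2 fold change of Usp18 was 0.81 and that of Cish 0.70, and 0.60 and 0.46 without tamoxifen 1.

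Of the genes of receptor turnover and adaptors, 14 of 15 were tested and 0 were called, 4 above 0 and 10 below. Their median log2 fold change was -0.30, and -0.08 without tamoxifen 1. Eps15, an endocytic adaptor, was at -0.39, Btrc, which encodes the ubiquitin ligase subunit that marks IFNAR1 for degradation, at -0.52, and Vps35, a retromer subunit, at -0.56 (limma adjusted p = 0.666 for each). These 3 genes have low GC contents of 41.2%, 40.6% and 37.8%, and without tamoxifen 1 their log2 fold changes were -0.24, -0.25 and -0.16. In 4 of the 14, these 3 included, every tamoxifen library lay below every oil library, against 9.69% of all genes tested. Without tamoxifen 1 this held for 4 of the 14, again with these 3, against 16.8%. In that setting 1 of the 14 lay above without overlap, against 12.6%.

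The median over partners and cofactors of ISGF3 was 0.16 on the log2 scale, and 0.06 without tamoxifen 1, with 10 of 10 tested and 0 called. Irf9, the DNA-binding partner of STAT2, had 1578, 1652 and 1434 normalized counts in the oil libraries and 2023, 2021 and 1891 in the tamoxifen libraries. The groups did not overlap, as for 7.86% of all genes tested in that direction, and tamoxifen 1 stayed close to tamoxifen 2. Its log2 fold change was 0.35 ± 0.13 (SE; limma adjusted p = 0.666), and 0.33 (limma adjusted p = 0.185) without tamoxifen 1. The acetyltransferase genes Kat2b and Kat2a were at -0.28 and 0.52, and at -0.29 and 0.16 without tamoxifen 1. Their groups did not overlap in either setting, with Kat2b lower and Kat2a higher. Of the 10 genes, 2 lay higher without overlap over all libraries, against 7.86% of all genes tested, and 2 lower, against 9.69%. Without tamoxifen 1 it was also 2 and 2, against 12.6% and 16.8%.

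Most targets of the pathway lay above 0, while the 9 genes were spread around 0. The 9 genes and the target lists were chosen with earlier results of these data known, so this contrast is a description. The ISRE list includes Usp18, the targeted gene. Of 28 ISRE targets 24 were tested and 0 were called, 22 above 0 and 2 below, with a median log2 fold change of 0.87, and 0.73 without tamoxifen 1. In 19 of the 24 every tamoxifen library lay above every oil library, against 7.86% of all genes tested, and without tamoxifen 1 in 22 of the 24, against 12.6%. Without that library limma called 8 of the 24 higher, against 0.309%. Ifit1, which encodes an antiviral RNA-binding protein, had 32.3, 39.6 and 25.1 normalized counts in the oil libraries and 298, 226 and 236 in the tamoxifen libraries. Its log2 fold change was 2.95 ± 0.26 (SE; limma adjusted p = 0.0950), and 2.82 (limma adjusted p = 0.00183) without tamoxifen 1. Irf7, which encodes a transcription factor for IFN genes, was at 1.84. Rsad2, which encodes viperin, had 1.80, 2.89 and 1.86 normalized counts in the oil libraries and 29.4, 24.2 and 15.5 in the tamoxifen libraries. It reached the filter for testing only through the tamoxifen libraries. Its oil values lay at or below the value of 3 reads, so no fold change is given for it. Targets that passed the filter in this way, Rsad2 included, were not set apart in the tallies above. Without tamoxifen 1 Irf7 was at 1.61 (limma adjusted p = 0.00277). Of the 20 ISRE targets with a promoter sequence, 12 held the ISRE core.

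The median over GAS targets was 0.49 on the log2 scale, and 0.36 without tamoxifen 1, with 15 of 20 tested, 14 above 0, 1 below and 0 called. In 7 of the 15 every tamoxifen library lay above every oil library, against 7.86% of all genes tested. Without tamoxifen 1 limma called 1 of the 15 higher, Socs1, against 0.309% of all genes tested. The guanylate-binding protein genes Gbp3 and Gbp2 were at 1.36 and 0.92, and Igtp, an IFN-inducible GTPase gene, was at 0.76 (limma adjusted p = 0.666 for each), and without tamoxifen 1 they were at 1.097, 0.73 and 0.56. Of the 16 GAS targets with a promoter sequence, 7 held the GAS core. STAT3 targets lay nearer to 0, with a median of 0.16, and 0.03 without tamoxifen 1, 15 of 20 tested, 12 above 0, 3 below and 0 called. The STAT3 targets with the smallest p were Il4ra, described above, Cebpb, a myeloid transcription factor gene at 1.35, and Pim1, a kinase gene at 0.45. Their values without tamoxifen 1 were 0.46, 0.77 and 0.29.

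**Figure D5:**
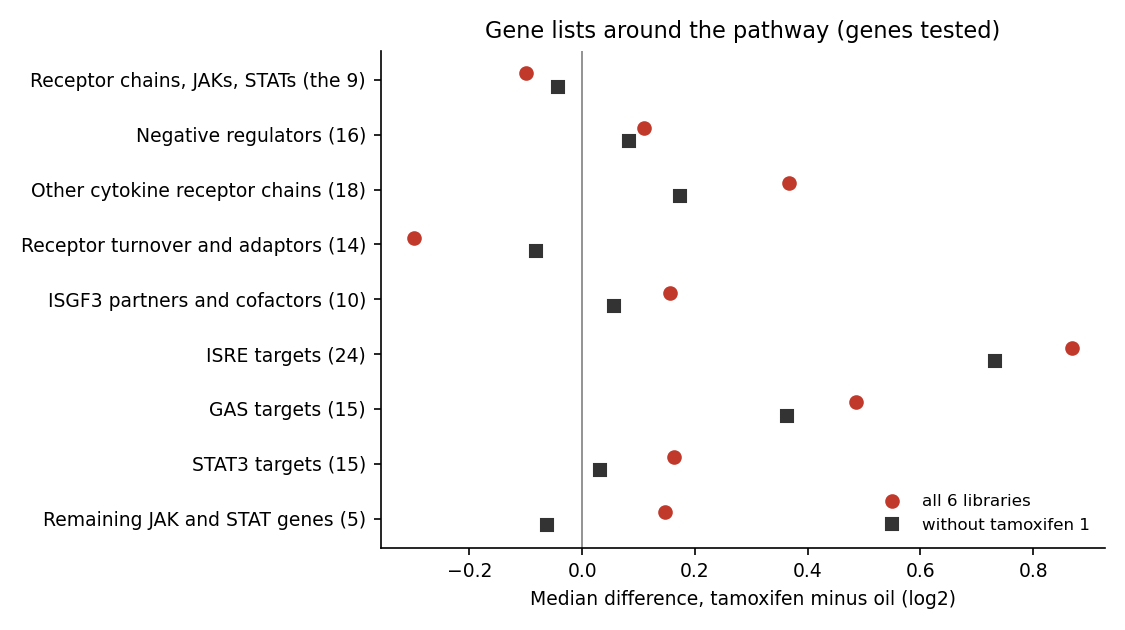
Median log2 fold change (horizontal axis, tamoxifen minus oil) of the 9 genes and of the lists of genes around the pathway, with the number of genes tested in parentheses, over all 6 libraries (red circles) and without tamoxifen 1 (black squares). The ISRE targets had the highest median in both fits, at 0.87 and 0.73, and the 9 genes lay near 0.

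The genes whose values over the 6 libraries were most like those of each of the 9 were found by Pearson's correlation of log2(value + 1) among all genes tested, as a description. For Jak1 these were Fpgt, Senp8 and Zfp644, for Jak2 Tia1, 2310043P16Rik and Klhl24, and for Ifngr1 Vrk2, Copb1 and Rpgrip1l. For Tyk2 they were Fbf1, Kdm6b and Rundc1, for Ifnar2 Mark2, Dgkz and Acadvl, and for Stat2 Fbxl18, Ankrd33b and Syvn1. For Ifngr2 they were Zmat1, Inpp5b and Plscr4. All of these lay at 0.99 or above and follow the deviation of tamoxifen 1, and 11.01% to 26.1% of the genes tested exceeded 0.9 with these 7 genes. Ifnar1 and Stat3, which tamoxifen 1 moved least, had few such genes, 75 and 50. Their nearest were Cib3 at 0.986, Tmem175 and Mavs for Ifnar1, and Mpped2 at 0.991, A330094K24Rik and Abhd4 for Stat3.

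Correlations among the 9 genes themselves depended on this library for some pairs and not for others. Ifnar2 and Tyk2 correlated at 0.99 over 6 libraries and 0.47 over the 5 without tamoxifen 1, and Ifngr1 and Jak1 at 0.97 and 0.28. The correlation was 0.95 and 0.94 for Ifngr2 and Jak1, 0.85 and 0.89 for Ifnar1 and Ifngr2, 0.96 and 0.82 for Tyk2 and Stat2, and 0.71 and 0.97 for Ifnar1 and Jak1. All values share the same libraries, so they are given without a p.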

How the data were processed

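Per the labels and the study's methods, GFP+Lin-c-Kit+ splenocytes were sorted from 6 mice, RNA was extracted with Trizol and paired-end libraries, for which the labels name a DNA tagmentation kit, were processed by the authors with STAR and DESeq2 on mm10. Versions, annotation, strand and filters are not given in the sources used here. The values the authors deposited are a normalized signal, each library's read counts over its own size factor, and 100% of them were whole multiples (within 0.01 read) of the value of 1 read, which recovered 19172471 to 23785143 reads. Of 55450 entries, 1832 had no name (0.0400% to 0.0614% of reads) and were left out. Floors and intervals from reads cover counting error only, since without molecular identifiers reads may be copies of the same molecule.

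limma (3.58.1, R 4.3.3; lmFit and eBayes with a trend) was run on log2(value + 1), a scale that understates changes of low genes, for the 12298 genes that reached 10 in 3 or more libraries, with two-sided p-values adjusted by Benjamini-Hochberg (threshold 0.05). Alternatives were DESeq2 (1.42.0), edgeR (4.0.16) and voom on recovered reads, TMM and upper-quartile scaling, pseudocounts of 0.5 and 5, no filter, a filter at 1 CPM, a block on the replicate number, a GC correction (loess span 0.3), library weights, stricter and unadjusted thresholds and each library left out in turn. edgeR and DESeq2 without tamoxifen 1 were added after seeing the data. The fit was tested on simulated data in which 200 of 12298 genes changed by 2 on the log2 scale, with a dispersion of 0.05. It recovered 99% of these and called 4 unchanged genes. The simulation held no library like tamoxifen 1 and no smaller changes, so it does not give the power in these data. Ratios were compared by an exact permutation test. The 9 genes, the pathway lists and the marker lists were chosen with earlier results of these data known. Named genes were the 9, Usp18, up to 3 tested genes per list with the smallest p, and for each of the 9 the 3 most correlated genes, and Il10rb was added as the neighbour in the cluster after its values were seen. Values of other JAK and STAT genes are not reported here (6 genes, 5 tested, 0 called). Coordinates, exon lengths and GC contents are from GENCODE vM21 (GRCm38).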

Additional observations from a re-analysis of the deposited data

How the results depend on the processing

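Under all 21 alternatives 0 of the 9 genes passed the threshold, and Ifnar1, Ifngr1, Ifngr2, Jak1, Tyk2 and Stat2 kept their direction in 21 of 21, Ifngr1 between -1.004 and -0.20, Ifngr2 between -0.55 and -0.21 and Stat2 between 0.13 and 0.52 on the log2 scale. The other 3 turned. Ifnar2 became -0.033 with library weights and -0.039 (edgeR) and -0.049 (DESeq2) on recovered reads with tamoxifen 1 left out, and ran from -0.063 to 0.54 as 1 library at a time was left out. Jak2 became 0.12 with the GC correction, with or without the replicate block, 0.093 with library weights and 0.083 (edgeR) and 0.073 (DESeq2) with tamoxifen 1 left out, and ran from -0.29 to 0.059 as 1 library was left out. Stat3 became -0.061 with the GC correction, with or without the replicate block, -0.094 with library weights and -0.025 (edgeR) and -0.034 (DESeq2) with tamoxifen 1 left out, and ran from -0.051 (without oil 3) to 0.12 as 1 library was left out, with -0.042 without tamoxifen 1. The cause was not tested beyond leaving libraries out, and leaving out tamoxifen 1 alone was enough in each case. Over all genes limma called 0, DESeq2 71, the GC correction 2, library weights 782 and the unadjusted threshold 550, and 0 to 41 when 1 library was left out, the 41 without tamoxifen 1. With tamoxifen 1 left out, edgeR called 46 and DESeq2 231. The number of the 9 genes whose groups did not overlap ranged from 1 to 4 when 1 library was left out, where 23.9% to 37.0% of all genes tested did not overlap: 4 without oil 3 (26.0% of all genes), 3 without oil 2 (23.9%), 2 without tamoxifen 2 (37.0%) and 1 without each of the others. The median of ISGF3 partners was 0.056 without tamoxifen 1. Same-numbered libraries of the groups did not deviate together (correlations of -0.02, 0.06 and -0.15). These deviations were taken from group means that include tamoxifen 1, so they do not settle whether the numbers pair libraries. With the replicate number as a block 0 genes were called. The median log2 fold change of all genes tested moved by 0.12 under DESeq2, which tested 15314 genes in place of 12298, and by under 0.1 under every other alternative. Over all libraries the widest interval of the 9 was that of Ifngr1, from -1.66 to 0.27. Without tamoxifen 1 the interval of Ifngr1 ran from -0.48 to 0.03, and the widest was that of Stat2, from -0.10 to 0.43.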
